A study of Arabidopsis thaliana with 3 samples.

Results

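AtSDR4L (AT3G27250), DIG1 (AT3G48510) and DIG2 (AT5G50360) are related Arabidopsis thaliana genes, and AtSDR4L encodes the protein whose chromatin binding was profiled here. They were taken by locus, as 3 of 27444 nuclear protein-coding genes, and every peak was counted whose summit lay from 3000 bp outside either gene end through the gene body. By that rule 5 peaks belonged to them, 3 of 9811 nuclear peaks in induced replicate 1 and 2 of 3423 in induced replicate 2. AtSDR4L held 4 of the 5, DIG2 held 1 and DIG1 held 0. None of the 5 touched the span of the AtSDR4L gene, so none lay over coding sequence that the AtSDR4L transgene also carries.

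AtSDR4L is related to the rice protein SDR4, a seed dormancy factor that acts downstream of the seed regulator OsVP1 in rice. DIG1 and DIG2 take their names from Dynamic Influencer of Gene expression and were described in work on the network of transcription factors that answers abscisic acid, the hormone of seed dormancy and water stress. The family has been studied as regulators of the switch from seed to seedling, when the seed maturation programme is shut down.

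All 3 samples were whole seedlings of an AtSDR4L-HA line, in which β-estradiol induces AtSDR4L carrying the HA epitope tag, harvested 4 days after imbibition. β-Estradiol at 1 µM was in the plates of the induced group (2 biological replicates) and absent from those of the uninduced group (1 control). Each went through chromatin immunoprecipitation (ChIP) with the same HA antibody and was sequenced. The transgene was present in induced and uninduced seedlings alike, and all of them also carried the plant's own 3 genes. The promoter that drives the inducer, the number of independent lines and the exact extent of the transgene are not stated in the labels. The authors called the peaks of each induced replicate against that 1 control, and the fold enrichment and q of a peak are their values over it. The control therefore enters every fold and q, and no peak list of its own was analysed here. Read depth is unknown, because a peak list holds no read counts, and a list says nothing of regions under its limit of q = 0.1.

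AtSDR4L carried the same pair of peaks in both induced replicates. Both lay in the 4658 bp between AtSDR4L and its neighbour GTE8, which encodes a bromodomain protein of the global transcription factor group E. Both lay on the side of AtSDR4L with the higher coordinates. The gene table used gives no strand, so whether that side is upstream or downstream of the gene cannot be said from it. Coordinates of peaks are 1-based on TAIR10.

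The peak nearer to AtSDR4L spanned chr3:10063587-10063925 in replicate 1, with a fold of 1.86 and a −log10 q of 5.16. In replicate 2 it spanned chr3:10063571-10063916, with a fold of 2.20 and a −log10 q of 10.3. Its summit lay 871 bp outside the gene end in replicate 1 and 894 bp in replicate 2, so the replicates placed it within 23 bp of each other. AtSDR4L was the only coding gene whose window reached this summit, since GTE8 lay 3788 bp away in replicate 1.

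The farther peak spanned chr3:10064670-10064921 in replicate 1, with a fold of 1.65 and a −log10 q of 3.00. In replicate 2 it spanned chr3:10064661-10064907, with a fold of 2.01 and a −log10 q of 7.37. The summits lay 1925 bp and 1917 bp outside the gene end, 8 bp apart between the replicates. This summit also fell within the window of GTE8, 2734 bp from it in replicate 1, and was still closer to AtSDR4L. In each replicate the nearer peak had the higher fold, and the space between the edges of the pair was 744 bp in both lists.

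Both regions had a higher fold in replicate 2 than in replicate 1, an order found at a minority of matched regions. The fold of replicate 2 was 1.19 times that of replicate 1 at the nearer region and 1.22 times at the farther one. Among 1732 regions that took exactly 1 peak from each list, 381 (22.0%) had the higher fold in replicate 2, and the median fold was 2.24 in replicate 1 and 1.79 in replicate 2. The −log10 q was also higher in replicate 2 at both, as it was at 23.2% of the 1732. No test of this order was made, since it compares 1 sample with 1 sample.

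**Figure D1:**
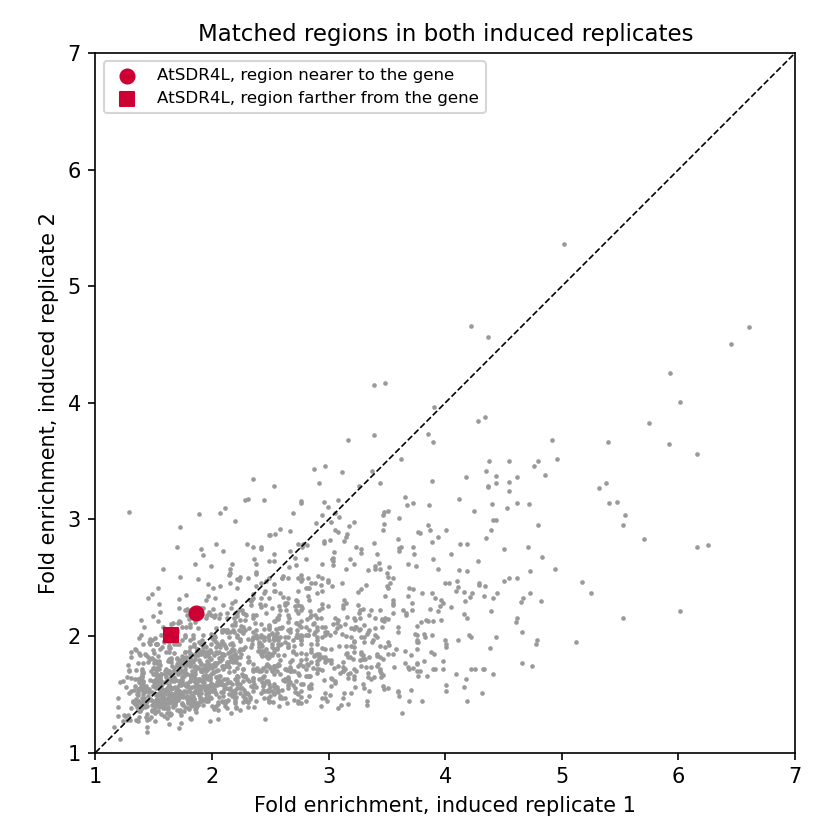
Fold enrichment over the uninduced control of 1732 matched regions in induced replicate 1 (x axis) and induced replicate 2 (y axis), 1 grey point per region, with the dashed line marking equal folds. The red symbols of AtSDR4L lie above the line, at 1.86 and 2.20 for the nearer region and at 1.65 and 2.01 for the farther one, while most grey points lie below it.

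The fold at the nearer region was 2.03 ± 0.243 (SD, n = 2) and at the farther one 1.83 ± 0.254 (SD, n = 2). Within each replicate the nearer region exceeded the farther one, by 0.204 units of fold enrichment in replicate 1 and 0.189 in replicate 2, and with 2 replicates this was not tested. Measured against all matched regions with 1 peak in each list, 48.6% had a lower mean fold than the nearer region and 34.2% a lower one than the farther region. Within the single lists the pair ranked differently. In replicate 1 the nearer peak exceeded 54.2% of all peaks in fold and the farther peak 34.5%. In replicate 2 these shares were 83.9% and 75.5%, against a median fold of 1.70 for that list.

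The authors also deposited a table that matches the replicates by irreproducible discovery rate (IDR), a measure of how repeatably a region ranks in both lists, with low values for repeatable regions. In the authors' deposited table the nearer region had an IDR of 0.326 and the farther one an IDR of 0.378, against a median of 0.344 over its 1784 regions. A lower IDR was given in the authors' deposited table for 842 regions than for the nearer region and for 979 than for the farther one. Neither was among the 182 regions of the authors' deposited table with an IDR of at most 0.05. The summit gaps of 23 bp and 8 bp between replicates compared with a median of 43.0 bp (quartiles 18.0 and 125.0) over the 1732 regions. A gap below 8 bp was found at 12.5% of them.

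**Figure D2:**
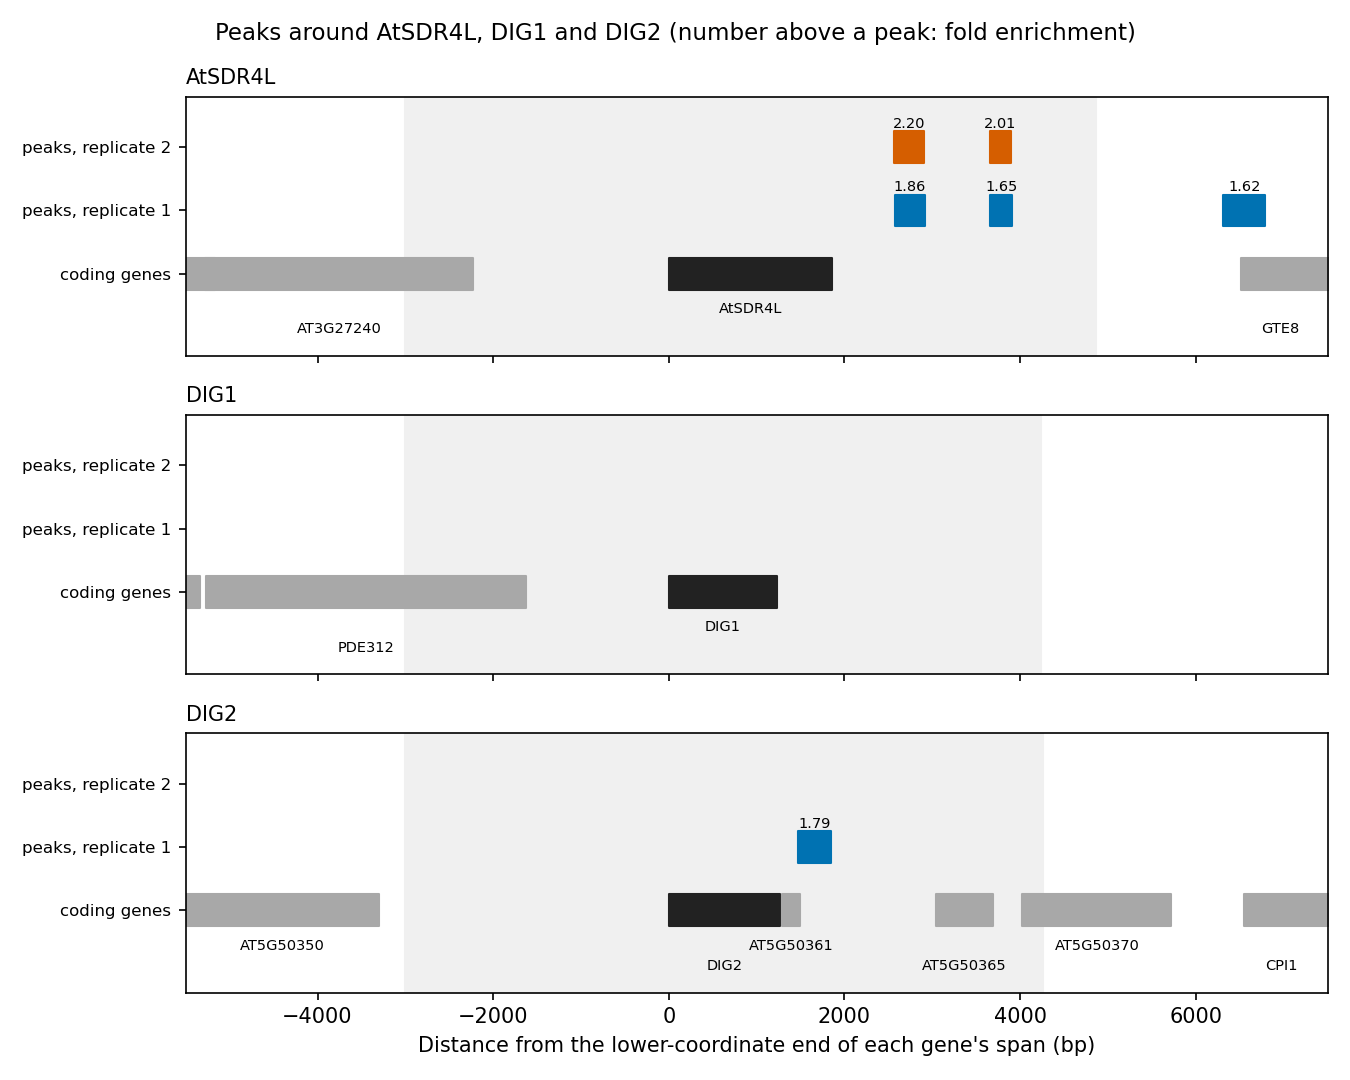
Positions of coding genes (bottom row of each panel, the named member in black and its neighbours in grey) and of the peaks of replicate 1 (blue) and replicate 2 (orange), against the distance in bp from the lower-coordinate end of each member's span, with the fold written above each peak. Grey shading marks the span and the 3000 bp outside it. AtSDR4L has a pair of peaks in both lists, DIG2 has 1 peak in the list of replicate 1 beside the small gene AT5G50361, and DIG1 has none.

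The place of these peaks bears on the transgene, because reads from AtSDR4L coding sequence in the transgene map to the plant's own AtSDR4L gene. The list of replicate 1 had 0 peaks that overlapped the AtSDR4L span by any base, and the list of replicate 2 also had 0. The nearest edge of a peak was 717 bp outside the span in replicate 1 and 701 bp outside in replicate 2. The annotated span of 1862 bp holds the coding sequence and all annotated untranslated parts of the gene, so the pair lies outside all of them. Whether the transgene carries any of the sequence under the pair is not stated in the labels.

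DIG2 had a peak in 1 replicate only. It spanned chr5:20506555-20506934 in replicate 1, with a fold of 1.79 and a −log10 q of 4.39, and the list of replicate 2 had no summit within the window. The fold exceeded 48.4% of the peaks of replicate 1 and lay just under that list's median of 1.80. Its summit lay 438 bp outside the higher-coordinate end of DIG2, with the small coding gene AT5G50361 between them. The summit was nearer to AT5G50361, at 214 bp, and the peak overlapped that gene by 24 bp. AT5G50365 and AT5G50370 had the same summit in their windows, so 4 coding genes share it and it cannot be given to DIG2 alone. A peak missing from the list of replicate 2 is a region that did not pass its limit, and no difference between the replicates was tested there.

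DIG1 had no peak in the window in either list. The closest peak in replicate 2 had its summit of highest q 6242 bp outside the gene, 21 bp from CYP94B3. That peak held 2 summits and covered 1743 bp of the CYP94B3 span of 1922 bp. CYP94B3 encodes an enzyme that hydroxylates the jasmonate conjugate JA-Ile. In replicate 1 the closest summit lay 16024 bp away, beside AT3G48460. No value below the limit of the lists was analysed here, so weaker signal at DIG1 was not detectable from them.

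**Figure D3:**
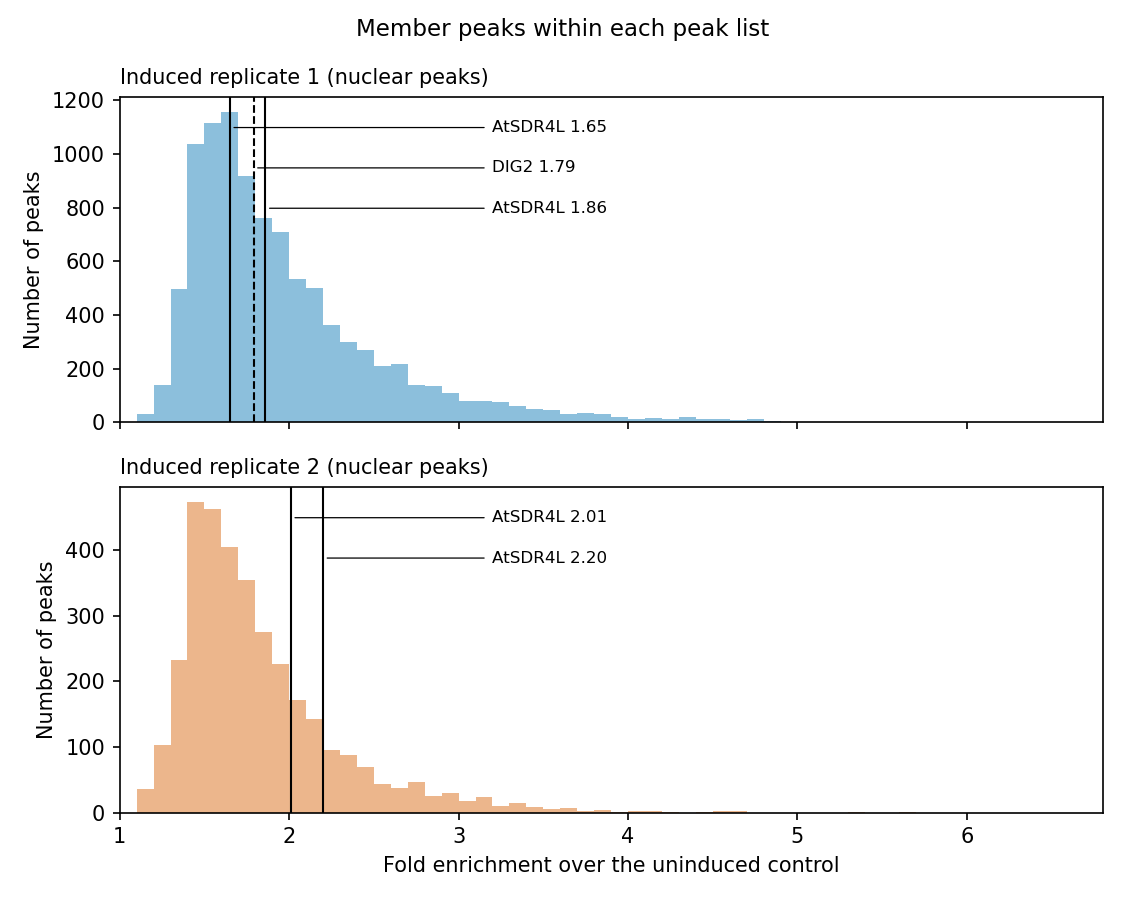
Number of nuclear peaks (y axis) by fold enrichment over the uninduced control (x axis, bins of 0.1) in the lists of induced replicate 1 (top) and replicate 2 (bottom), with lines at the peaks of AtSDR4L (solid) and DIG2 (dashed). The 3 lines of replicate 1 lie between 1.65 and 1.86, near the list's median of 1.80, and the 2 lines of replicate 2 lie at 2.01 and 2.20, above its median of 1.70.

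A peak in such a window is common, and with 3 genes no count sets the family apart. In replicate 1, 51.3% of coding genes had a summit in the window, against 2 of these 3 genes. In replicate 2, 22.0% had one, against 1 of 3. Summits of both lists were found at 16.6% of coding genes, as at AtSDR4L, and no summit of either list at 43.3%, as at DIG1. A summit in replicate 1 and none in replicate 2, as at DIG2, was the state of 34.7%. A matched region of the authors' deposited table lay in the window of 12.4% of coding genes, against AtSDR4L alone of the 3, and 1.05% had one with an IDR of at most 0.05, against 0 of 3.

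AtSDR4L was the member with 2 matched regions. At least 2 matched regions of the authors' deposited table lay in the window of 1.16% of coding genes, and of 9.38% of the 3400 coding genes that had any. The lack of a peak inside the gene itself was common: of those 3400 genes, 79.7% had no matched region inside their span, which is 9.87% of all coding genes. Over all coding genes, 14.2% had a summit of replicate 1 inside the span and 6.39% a summit of replicate 2, against 0 of these 3 genes in both lists. A matched region lay inside the span of 2.52%, also against 0 of 3.

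Summed over both flanks, all 3 genes had more space free of coding genes than most, a feature that the choice by locus did not use. The space was not always unbroken: at DIG2 the next coding gene, AT5G50361, lay 26 bp from the higher-coordinate end. Within 3000 bp outside its ends AtSDR4L had 5235 bp free of coding genes, DIG2 had 4911 bp and DIG1 had 4630 bp, against a median of 2541 bp over all coding genes. These values exceeded those of 91.8%, 89.0% and 86.2% of coding genes. The part of this space in the number of peaks was not tested.

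No summit lay close to the 3000 bp limit on either side. The outermost summit within it was that of the farther peak of AtSDR4L, 1925 bp out in replicate 1. The first one beyond it belonged to a peak of replicate 1 at chr3:10067323-10067797, with a fold of 1.62 and a summit 4566 bp from AtSDR4L. That summit was 93 bp from GTE8, and replicate 2 had no peak there.

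The family was set beside 2 gene lists: regulators of the seed to seedling switch, and gibberellin pathway genes named in studies of AtSDR4L. Because the gibberellin genes were picked from such studies, their shares are not those of a list chosen without regard to AtSDR4L. Of 16 regulators of the seed to seedling switch, 8 had a summit of replicate 1 in the window (against 51.3% of all coding genes) and 4 had one of replicate 2 (25.0%, against 22.0%). A matched region of the authors' deposited table lay at 1 of the 16 (6.25%, against 12.4%). It was LEC1, which encodes a subunit of the NF-Y factor that drives embryo development. The folds were 3.15 and 2.58 at a region 2751 bp from LEC1 and nearest to PIP5K1. This region had an IDR of 0.0467, so 1 of the 16 had one of at most 0.05 (6.25%, against 1.05%). VAL1 and VAL2, repressors of the embryo programme, each had a peak in replicate 1 and none in replicate 2, as DIG2 did. The other genes of the list in this state, that of 34.7% of all coding genes, were VAL3, PKL, ABI5 and L1L. ABI3 and FUS3, B3-domain activators of seed maturation, had none in either list, as DIG1 did. Of the same list LEC2, ABI4, RDO5 and BBM also had none, the state of 43.3% of all coding genes. AGL15 and LEC1 had summits of both lists, as AtSDR4L did, the state of 16.6% of all coding genes. WRI1 and DOG1 had a summit of replicate 2 and none of replicate 1, a state whose share over all coding genes is not given here. No difference between genes of unlike function was tested.

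Of 15 gibberellin pathway genes, 12 had a summit of replicate 1 in the window (80.0%, against 51.3%) and 7 had one of replicate 2 (46.7%, against 22.0%). A matched region of the authors' deposited table lay at 6 of the 15 (40.0%, against 12.4%). Of these 6, 3 had one with an IDR of at most 0.05 (3 of the 15, against 1.05% of all coding genes). GA20OX3, a gibberellin biosynthesis gene, had the highest folds of these, 3.89 and 3.67 at a region 1931 bp out. RGL2, a DELLA repressor that holds back germination, had 3.13 and 2.81 at 1062 bp, nearest to AT3G03460. GID1B, a gibberellin receptor gene, had 3 matched regions, with folds of 2.92 and 1.72, 3.55 and 2.26, and 3.27 and 2.22. The receptor gene GID1A had 2.88 and 1.84 at a region 1552 bp out that was nearest to AT3G05110, and the DELLA genes GAI and RGA had 2.65 and 2.18 and 2.53 and 1.97. In replicate 1 each of these gibberellin regions exceeded the fold of both AtSDR4L regions, whereas in replicate 2 the nearer AtSDR4L region (2.20) exceeded GAI, RGA, GID1A and 1 of the 3 regions of GID1B. No test of the lists was made, and they were chosen with earlier results of these data known.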

How the data were processed

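ChIP-seq peaks of 2 induced replicates were analysed. Peaks were called with MACS2 2.2.7.1 per replicate against the uninduced control, per the series' design text. Bowtie2 2.3.5.1, SAMtools 1.7, bcl2fastq 2.20 and TAIR10 are named in the submitters' processing notes. How reads were filtered or duplicates handled, and how the IDR program was set, is not stated in the labels.

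The deposited peak lists give a display score (not used further), a fold enrichment ratio at the summit and −log10 p and q. The authors' deposited table gives −log10 IDR and a scaled score. Rows of 1 peak with the same start and end were merged to the summit of highest q, which left 9811 of 12865 rows as nuclear peaks in replicate 1 and 3423 of 4502 in replicate 2. The folds of a matched region were taken from the peaks that overlap it by at least 1 bp, with the most bases shared. Of 1784 matched regions 1776 were nuclear, and 1732 of these met 1 peak in each list.

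Genes came from a RefSeq table of assembly TAIR10.1 with spans and no strand or exons. Its coordinates are not printed, and distances assume the same positions as TAIR10. To check this, summits with an IDR of at most 0.05 were shifted by 2000 to 20000 bp: 13.2% lay in gene spans unshifted and 49.5% to 63.7% shifted. No shift under 2000 bp was tried, so the check says nothing of smaller offsets. No sequence was used here.

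No test between groups was possible with 1 control. Values are described against all coding genes. Named were the 3 genes, genes nearest to or sharing their peaks, and genes nearest to the first peaks outside the windows. Listed genes with a matched region and genes nearest to those regions were also named. The seed to seedling genes other than LEC1 were named after their values were seen. The members and lists were chosen with earlier results of these data known. Window assignment was tested on simulated data. Python 3.11.15, pandas 2.3.3, numpy 2.4.6 and matplotlib 3.10.9 were used. Alternatives covered the window, q and IDR limits, overlap rules and each replicate alone.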

Additional observations from a re-analysis of the deposited data

How the results depend on the processing

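Of 58 recomputed values, 45 stayed within the limits set for a change and 13 did not. These limits let small counts shift: with 1000 bp, replicate 1 had 2 peaks in place of 3 and was counted as unchanged. In that replicate gibberellin genes with a peak went from 12 to 8 of 15 (against 36.0% of all coding genes). Seed to seedling genes went from 8 to 6 of 16, and both were also counted as unchanged. That 0 folds changed beyond the spread between replicates was fixed by construction. Each alternative fold was 1 replicate of a mean of 2, or the highest fold of a peak with 1 summit. With −log10 q of at least 5, replicate 1 kept 1 of its 3 peaks, the nearer one of AtSDR4L. With a window of 1000 bp, replicate 2 had 1 peak at these genes and the matched regions numbered 1, because the farther AtSDR4L region lies beyond it. Of all coding genes, 13.6% had a summit of replicate 2 in that window and 7.09% had a matched region. At an IDR of at most 0.05 or 0.1 in the authors' deposited table, the family had 0 matched regions. In the 3000 bp window 1.05% of all coding genes had one of at most 0.05, and the share at 0.1 is not given here. When a summit counted for its nearest gene alone, replicate 1 had peaks at 1 member, since the DIG2 peak went to AT5G50361. The share of all coding genes under that rule is not given here. Leaving out 1 replicate left 2 to 3 of 5 peaks and 1 to 2 members with a peak, by construction, and mean folds of 1.86 to 2.20 and 1.65 to 2.01 at the AtSDR4L regions. With 1000 bp, gibberellin genes with a peak numbered 3 of 15 in replicate 2 (against 13.6% of all coding genes) and 2 of 15 over matched regions (against 7.09%). Seed to seedling genes then numbered 0 of 16 over matched regions (against the same 7.09%). At an IDR of at most 0.05, with the window of 3000 bp, gibberellin genes numbered 3 of 15 and seed to seedling genes 1 of 16 (against 1.05%). No paired analysis was possible because the control is 1 sample and no result comes from a test.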

Other observations

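The closest peak to DIG1 in replicate 2, at chr3:17974582-17976595, had a −log10 q of 142, above that of 99.0% of the peaks of that list, at a fold of 2.20. It held 2 summits, covered 1743 bp of the CYP94B3 span of 1922 bp and had no counterpart in replicate 1 within 16024 bp of DIG1. At AtSDR4L the closest peak of replicate 2 outside the window lay 14870 bp away, inside AT3G27210, with a fold of 1.17 that exceeded 0.555% of that list.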
